A study of Homo sapiens with 2 samples.

Results

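The 39 protein-coding genes of the 4 human HOX clusters were followed in SF-539, a cell line from human GBM, with and without knockdown of FKBP9. The rule for members used gene names and positions and no measured value, and took every protein-coding gene called HOXA, HOXB, HOXC or HOXD followed by a number, out of 58735 genes in the deposited file, of which 19951 were protein-coding. They comprised 11 HOXA, 10 HOXB, 9 HOXC and 9 HOXD genes. The control cells (shControl) carried the pGIPZ-CTRL lentivirus, and the knockdown cells (shFKBP9) carried an FKBP9-shRNA lentivirus. Both were stable clones selected with puromycin, both were cultured in DMEM with FBS, and neither set of labels gives any further genetic change. Which of the FKBP9 shRNAs used in the study was sequenced, and whether clones were pooled, is not given in the labels. RNA from each was sequenced as 1 library per condition, so the conditions could not be tested against each other, and clone, library and knockdown cannot be told apart.

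HOX genes encode homeodomain transcription factors that lie side by side in clusters, in the same order as the body regions in which they act from head to tail. Genes that occupy the same place in different clusters form a paralog group, and low group numbers mark the hindbrain and neck while high numbers mark the lumbar and tail regions and the ends of the limbs. Cells keep much of this code in culture. The forebrain and midbrain normally form without HOX expression, and HOX genes are known to be expressed in many GBM.

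Upstream sequences are shown for 4 genes that mark the ends of the range seen here, as an unexpressed gene beside the most highly expressed one (HOXB1, next to HOXB2), the highest HOXD gene (HOXD8), and a pair from paralog group 13 of which HOXD13 was expressed and HOXA13 was not detected. Each line gives the 250 bases before the RefSeq start of the gene in GRCh38.p14, 5′ to 3′ on the strand of the gene, with the dinucleotide CG in capitals. HOXB1 is from chr17:48531012-48531261 on the minus strand, HOXD8 from chr2:176129455-176129704 on the plus strand, HOXD13 from chr2:176092471-176092720 on the plus strand and HOXA13 from chr7:27200092-27200341 on the minus strand.
HOXB1: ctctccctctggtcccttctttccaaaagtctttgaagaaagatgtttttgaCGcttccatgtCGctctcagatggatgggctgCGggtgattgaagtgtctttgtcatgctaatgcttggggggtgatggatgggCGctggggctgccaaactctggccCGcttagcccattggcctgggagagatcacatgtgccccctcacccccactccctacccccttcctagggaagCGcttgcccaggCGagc
HOXD8: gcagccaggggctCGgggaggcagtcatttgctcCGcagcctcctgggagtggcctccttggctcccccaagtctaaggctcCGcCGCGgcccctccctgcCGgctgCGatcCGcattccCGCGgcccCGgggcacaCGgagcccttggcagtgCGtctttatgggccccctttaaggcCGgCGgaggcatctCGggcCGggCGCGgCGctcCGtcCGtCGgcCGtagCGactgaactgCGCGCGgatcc
HOXD13: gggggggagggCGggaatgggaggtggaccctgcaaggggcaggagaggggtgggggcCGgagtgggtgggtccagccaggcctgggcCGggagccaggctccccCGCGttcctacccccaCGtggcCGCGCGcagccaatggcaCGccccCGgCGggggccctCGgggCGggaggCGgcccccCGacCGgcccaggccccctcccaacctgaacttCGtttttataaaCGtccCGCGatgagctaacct
HOXA13: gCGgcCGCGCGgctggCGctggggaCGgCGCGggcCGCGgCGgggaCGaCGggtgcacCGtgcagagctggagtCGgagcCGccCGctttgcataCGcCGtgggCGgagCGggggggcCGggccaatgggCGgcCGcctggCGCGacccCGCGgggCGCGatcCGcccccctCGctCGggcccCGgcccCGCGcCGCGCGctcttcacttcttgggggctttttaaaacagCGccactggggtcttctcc
The stretch before HOXA13 held 40 CG and that before HOXD13 held 21, while HOXD8 had 28 and HOXB1 had 7. The undetected genes HOXA13 and HOXB1 thus had the most and the fewest CG of these 4 sequences. Upstream sequences were found in the RefSeq table for 20 of the 39 HOX genes, with a median of 20.5 CG and a range of 4 to 40. Of these 20, 17 (85.0%) held 10 or more CG, against 52.2% of 35116 upstream sequences of all genes. The 5 matched genes at 1 FPKM or more in either library had a median of 23 CG, and the 15 below it had a median of 19. The letters TATAAA, read on both strands, occurred in 4 of the 20 (20%), HOXD13 among them, and in 10.7% of all upstream sequences. TGATNNAT, letters that PBX and HOX proteins can bind together, occurred on either strand in 3 of the 20 (15.0%), HOXB1 among them, and in 6.47% of all.

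Levels are given as FPKM, fragments scaled by gene length and library size, which allows genes of different length to be compared. In shControl 18116873 fragments lay on genes, and in shFKBP9 17158514. On a gene of 1 kb, a single fragment was worth 0.0552 FPKM in the first library and 0.0582 in the second. FKBP9 (chromosome 7, 32957404 to 33006931, hg38), a peptidyl-prolyl isomerase of the endoplasmic reticulum and the target of the shRNA, had 49.8 FPKM in shControl and 4.68 in shFKBP9, a log2 ratio of -3.38. All ratios are of shFKBP9 over shControl with 0.1 added to FPKM. Intervals are exact 95% intervals of the fragment counts, made without this addition, and cover counting error only. The labels call the cells epithelial glioma cells from brain. Of the astrocyte markers GFAP, AQP4, S100B, ALDH1L1 and SLC1A2, 0 of 5 reached 1 FPKM in either library, with a summed level of 0.212 FPKM in shControl and 0.210 in shFKBP9. The neural stem marker SOX2 had 0.0879 and 0.162 FPKM, and NES had 2.36 and 2.17. Among epithelial markers CDH1 was at 0 FPKM in shControl and at 0.00943 in shFKBP9, EPCAM stood at 0.241 and 0.324, KRT8 stood at 1.28 and 1.09, and KRT18, its filament partner, stood at 0.154 and 0.0905. Most of the mesenchymal genes listed were high, with COL1A1 at 837 and 884 FPKM and VIM at 277 and 295, and 5 of the 6 passed 1 FPKM in both libraries. The exception was the collagen gene COL3A1, at 0.341 and 0.359. The astrocyte markers and CDH1 were therefore near 0 in both libraries while KRT8 was above 1 FPKM, and LUM, a proteoglycan gene of fibroblasts, stood at 28.1 and 54.2 FPKM.

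In shControl 13 of the 39 HOX genes had at least 1 FPKM, and in shFKBP9 14 had, the level taken here as expressed. The same 13 were found in both libraries, and HOXB6 was the additional gene in shFKBP9, at 0.954 FPKM in shControl and 1.01 in shFKBP9. On the TPM scale 21 HOX genes reached 1 in each library. At 1 FPKM or more, the level of the counts of 13 and 14, stood 51.1% of all protein-coding genes in each library. So did 39 of 153 (25.5%) other protein-coding genes that the deposited annotation places in the homeobox family. Of the remaining 25 HOX genes, 13 had more than 3 fragments in at least 1 library but less than 1 FPKM, and 12 had at most 3 fragments in each. HOXA13, HOXB1, HOXB9, HOXB13 and HOXC12 had 0 fragments in both libraries, which allows levels up to 0.0326 to 0.0706 FPKM by gene and library when 3 fragments are taken as the limit. Together the HOX genes held 3097 fragments in shControl, 0.0171% of all (exact binomial interval 0.0165 to 0.0177%), and 2898 in shFKBP9, 0.0169% (0.0163 to 0.0175%).

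**Figure D1:**
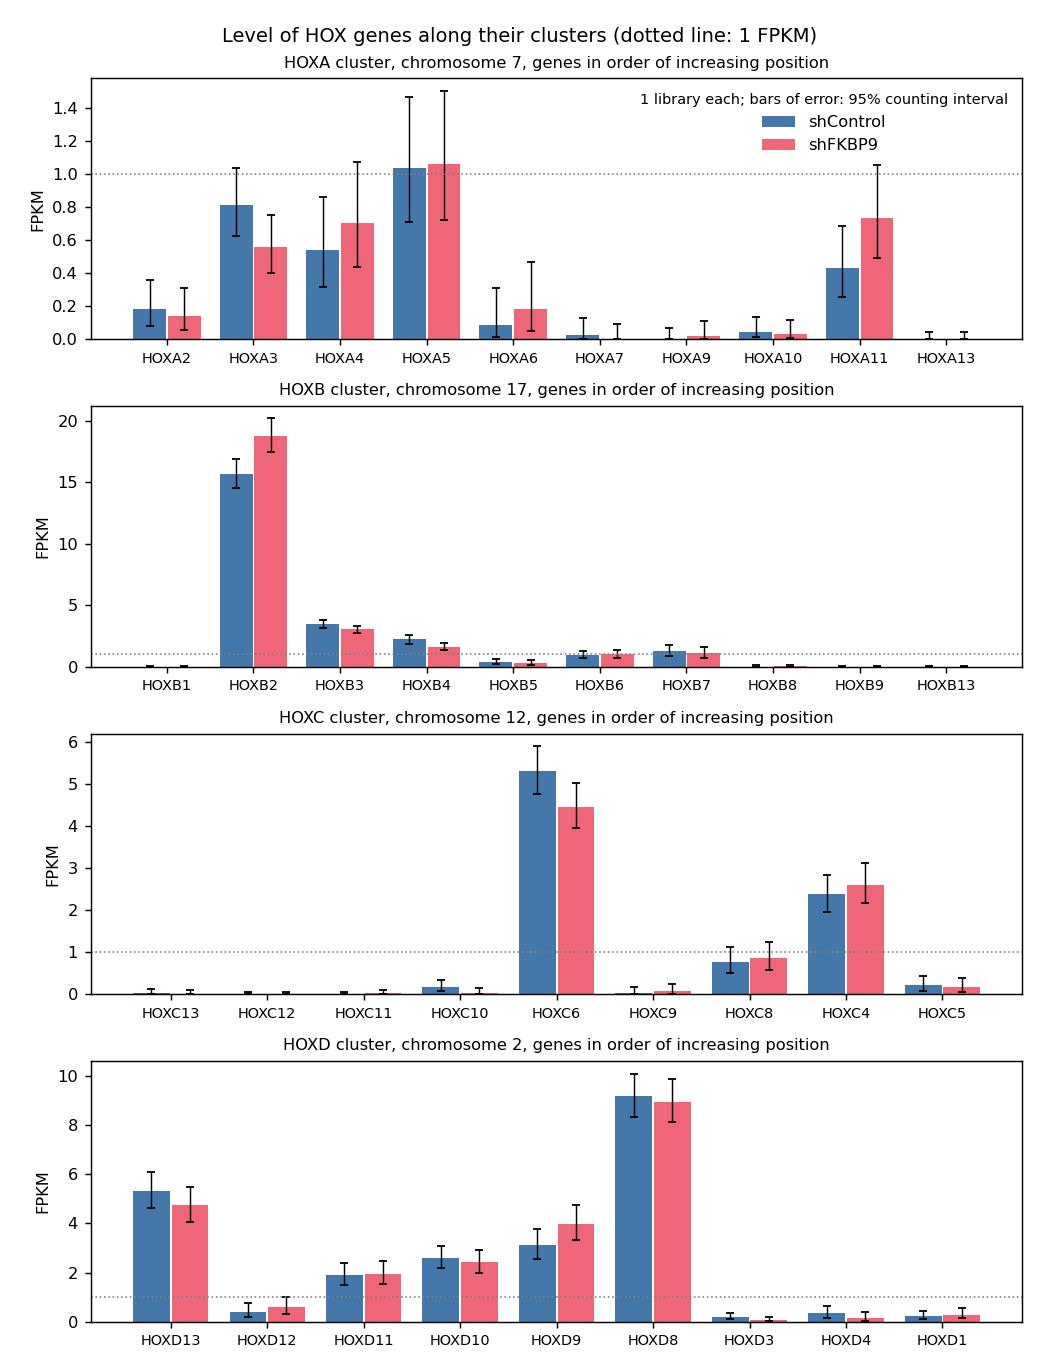
Level of 38 of the 39 HOX genes in FPKM (vertical axes) along the HOXA, HOXB, HOXC and HOXD clusters, with genes in order of increasing chromosome position, 1 bar per library for shControl and shFKBP9, and 95% counting intervals as error bars. HOXB2 is the tallest bar, at 15.7 FPKM in shControl and 18.8 in shFKBP9, and expressed genes lie at opposite ends of the HOXB and HOXD clusters, HOXB2 near the low-numbered end and HOXD13 at the high-numbered end.

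HOXB2 (ENSG00000173917, chromosome 17, 48540894 to 48544989, minus strand), a gene of the hindbrain segments, was the most highly expressed HOX gene. It reached 15.7 FPKM (664 fragments) in shControl and 18.8 FPKM (755 fragments) in shFKBP9. In shControl this level exceeded that of 85.7% of protein-coding genes. HOXB2 and HOXB1 are neighbours separated by 9892 bp, yet HOXB1, known for the identity of a single hindbrain segment, was not detected in either library. On the other side of HOXB2 the levels stepped down as far as HOXB5 and were higher again at HOXB6 and HOXB7. HOXB3 had 3.49 FPKM in shControl and 3.03 in shFKBP9, and HOXB4, a gene also known for expanding blood stem cells, had 2.22 and 1.61. HOXB5 lay below 1 FPKM at 0.379 and 0.314, HOXB6 stood at the limit, 2.52 times above HOXB5 in shControl and 3.21 times in shFKBP9, and HOXB7 had 1.27 and 1.11. Expression ended there, since HOXB8 had 0 fragments in shControl against 1 in shFKBP9, and HOXB9 and HOXB13 had none. Within HOXB, paralog groups 1 to 3 held 79.9% of the FPKM in shControl and 84.3% in shFKBP9, and groups 9 to 13 held 0%.

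The HOXD cluster (chromosome 2, 176092891 to 176190907, 98.0 kb, plus strand) showed the opposite arrangement, with expression on the side of the high group numbers, genes best known for patterning the limbs and the genital tubercle. HOXD8 had 9.18 FPKM (437 fragments) in shControl and 8.95 FPKM (404 fragments) in shFKBP9, the second highest level of any HOX gene in both libraries. HOXD13, the last gene of the cluster and one required for finger and toe formation, had 5.33 FPKM from 216 fragments and 4.73 from 182. Between them HOXD9 had 3.10 and 3.99 FPKM, HOXD10 had 2.61 and 2.42, HOXD11 had 1.91 and 1.96, and HOXD12 had 0.410 and 0.606. Paralog groups 9 to 13 of HOXD therefore had 4 of 5 genes at 1 FPKM or more in both libraries. Expression dropped sharply past HOXD8. HOXD3 begins 3916 bp beyond it and had 0.202 FPKM in shControl and 0.0821 in shFKBP9, 45.4 times and 109 times below HOXD8, the latter value resting on 5 fragments of HOXD3. HOXD4, a hindbrain gene, had 0.340 and 0.159 FPKM, and HOXD1 had 0.224 and 0.295. The low-numbered side of HOXD thus stayed below 1 FPKM in both libraries.

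In the HOXC cluster (chromosome 12, 53938765 to 54056030, 117.3 kb, plus strand), HOXC6 and HOXC4 carried the expression. HOXC6, a gene of the thorax and forelimb level, had 5.30 FPKM (340 fragments) in shControl and 4.46 FPKM (271 fragments) in shFKBP9, and HOXC4 had 2.37 from 117 and 2.61 from 122. HOXC8 lay just below 1 FPKM, at 0.760 and 0.863, and HOXC5 had 0.214 and 0.161. From HOXC9 to HOXC13 no gene had more than 7 fragments in a library. HOXC10 had 7 in shControl against 1 in shFKBP9, HOXC9 had 1 and 2, HOXC11 had 0 and 1, and HOXC13 had 1 and 0. Groups 4 to 8 held 97.5% of the FPKM of this cluster in shControl and 98.6% in shFKBP9.

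The HOXA cluster (chromosome 7, minus strand) was the least expressed by summed FPKM. HOXA5, known for its part in lung formation, had 1.04 FPKM (32 fragments) in shControl and 1.06 FPKM (31 fragments) in shFKBP9. Of the HOXA genes below 1 FPKM in both libraries HOXA3 was the nearest to it, at 0.808 and 0.555, followed by HOXA4 at 0.537 and 0.700 and HOXA11 at 0.431 and 0.732. HOXA2 had 0.180 and 0.142 FPKM from 8 and 6 fragments. HOXA6, HOXA7, HOXA9 and HOXA10 had at most 4 fragments each in a library, and HOXA13 had none. HOXA9 and HOXA10, known as leukaemia genes and much studied in GBM, were thus represented by 0 and 3 fragments in shControl and by 1 and 2 in shFKBP9.

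**Figure D2:**
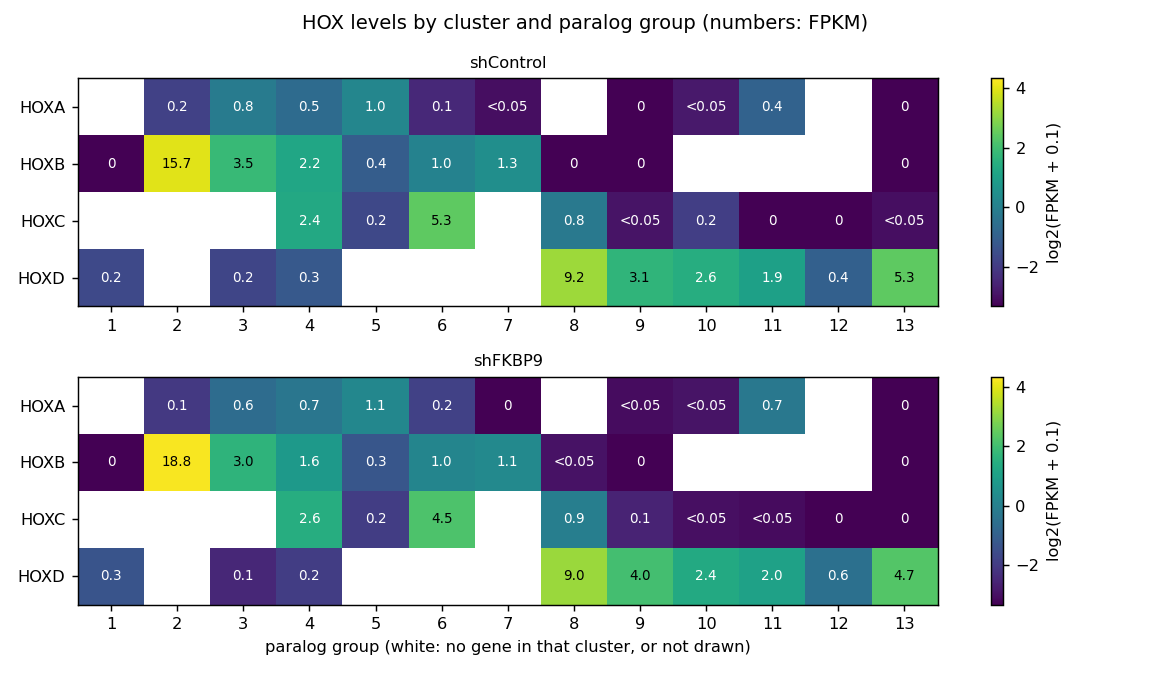
Levels of the HOX genes as log2(FPKM + 0.1) (color scale, FPKM printed in each cell), with clusters as rows, paralog groups 1 to 13 as columns and 1 panel per library, white where the cluster has no gene of that group or the gene is not drawn. The highest cells run from groups 2 to 4 in HOXB through groups 4 and 6 in HOXC to groups 8 to 13 in HOXD, with HOXD12 below 1 FPKM, and the panels for shControl and shFKBP9 show the same layout.

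Summed over each cluster, HOXB and HOXD held most HOX expression. HOXB had 24.0 FPKM in shControl and 25.9 in shFKBP9 (39.4% and 41.6% of the HOX sum), HOXD had 23.3 and 23.2 (38.2% and 37.2%), HOXC had 8.87 and 8.20 (14.5% and 13.2%) and HOXA had 4.80 and 5.02 (7.87% and 8.06%). By position in the clusters, groups 1 to 3 held 36.5% of the HOX FPKM in shControl and 39.4% in shFKBP9, groups 4 to 8 held 40.5% and 37.2%, and groups 9 to 13 held 23.0% and 23.4%. Anterior and posterior shares came from different clusters. HOXB supplied 86.2% of groups 1 to 3 in shControl and 89.1% in shFKBP9, and HOXD supplied 95% and 93.9% of groups 9 to 13. Paralogs thus differed within a group. In group 13 HOXD13 was expressed while HOXA13 and HOXB13 had 0 fragments and HOXC13 had 1 in all, and in group 2 HOXB2 had 15.7 FPKM and HOXA2 0.180 in shControl. In group 9 HOXD9 had 3.10 FPKM in shControl, and HOXA9, HOXB9 and HOXC9 together had 1 fragment.

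In shControl HOXB2, HOXD8, HOXD13, HOXC6 and HOXB3 were the 5 highest HOX genes and held 64.0% of the HOX FPKM. In shFKBP9 HOXD9 took the place of HOXB3, and the top 5 held 65.7%. The order of the levels was well separated only at its top. HOXB2 lay above HOXD8, and HOXD8 above HOXD13, with intervals that did not overlap in either library, and HOXC6 lay above HOXB3 in the same way in shControl. For the other neighbours in the order, 9 of 12 pairs in shControl and 11 of 13 in shFKBP9, the intervals overlapped. Across the 39 genes Spearman's rho between the libraries was 0.977, a description over genes that share library and depth, and no gene moved by more than 5 ranks.

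The comparison of shFKBP9 with shControl asked whether knockdown went along with a different HOX profile. No HOX gene at 1 FPKM or more in either library passed 2-fold, 0 of 14. In all, 0.406% of the 10346 protein-coding genes at this level passed 2-fold, as did 4.21% of the 12741 genes of all types, a background against which 0 of 14 does not set the HOX genes apart. The 14 log2 ratios ran from -0.44 to 0.35, with 6 above 0 and 8 below (46.3% and 53.7% of protein-coding genes lay above and below), and their median was -0.04, beside -0.02 over all genes tested. Summed HOX FPKM was 61.0 in shControl and 62.3 in shFKBP9, a log2 ratio of 0.03, and the pooled fragments gave -0.02 (interval -0.09 to 0.05).

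Counting intervals excluded 0 for 4 of the 14 genes, against 43.7% of protein-coding genes, which had more fragments (a median of 1385.5 in both libraries together, and 239 for the 14 HOX genes). HOXB2 was higher in shFKBP9, with a log2 ratio of 0.26 (0.11 to 0.41). HOXB3 was lower, at -0.20 (-0.40 to -0.01), as were HOXB4 at -0.44 (-0.84 to -0.09) and HOXC6 at -0.25 (-0.49 to -0.02). The upper limits of HOXB3, -0.0060, and HOXC6, -0.0160, lay above -0.0167, the median log2 ratio of genes expressed in both libraries. Centred on that median, these 2 intervals would include 0. The ratios of the adjacent genes HOXB2 and HOXB3 differed in direction, and the fold between their levels was 4.50 in shControl and 6.21 in shFKBP9. Of protein-coding genes, 19.7% had an interval above 0 and 24.0% one below 0. With 1 library per condition, the spread between replicates of these genes was not measured.

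For the other 10 expressed genes the interval included 0. HOXD9 had the highest ratio, 0.35 (-0.02 to 0.75), and HOXB7 the lowest of these 10, -0.18 (-0.96 to 0.56), just below HOXD13 at -0.17 (-0.46 to 0.12). HOXD8, with the most fragments of these 10, had a ratio of -0.04 (-0.24 to 0.16), which sets the narrowest limits among them. HOXA5 stood at 0.03 (-0.73 to 0.79) and HOXC4 at 0.13 (-0.24 to 0.52). Differences inside these limits were not detectable at this depth. Below 1 FPKM, 11 genes had at least 10 fragments together, and the interval included 0 for all of them. HOXA11 had 18 fragments in shControl against 29 in shFKBP9 (0.65, -0.13 to 1.70), HOXD3 had 13 and 5 (-0.73, -3.14 to 0.28) and HOXD4 had 9 and 4 (-0.76, -3.24 to 0.75). HOXC10, at 7 and 1 fragments, had an interval from -8.22 to 0.23.

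**Figure D3:**
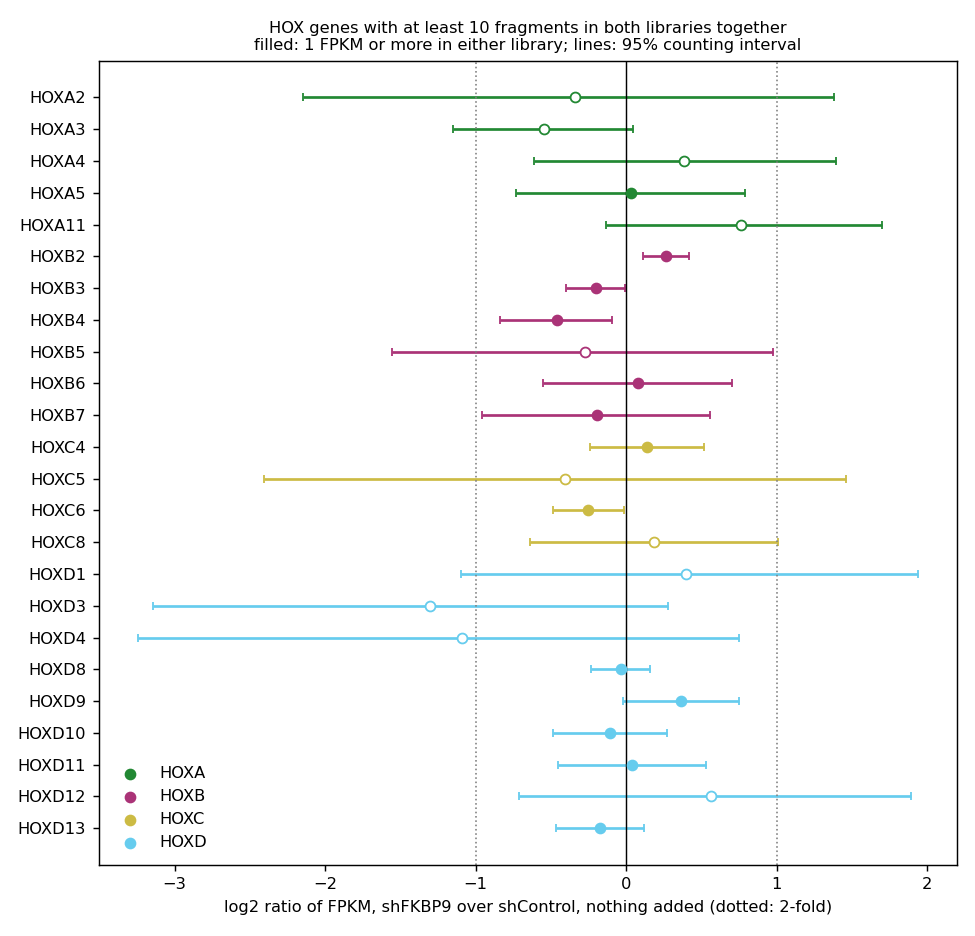
Log2 ratio of FPKM in shFKBP9 over shControl with nothing added (horizontal axis) for 24 HOX genes with at least 10 fragments in both libraries together (1 further such gene is not drawn), colored by cluster, with 95% counting intervals as lines, dotted lines at 2-fold, and filled points for genes at 1 FPKM or more in either library. Among filled points only HOXB2 lies above 0 with its whole interval, HOXB3, HOXB4 and HOXC6 lie below 0 with theirs, and none is past 2-fold.

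By cluster, the log2 ratios of summed FPKM were 0.07 for HOXA, 0.11 for HOXB, -0.11 for HOXC and -0.01 for HOXD. Pooled fragments gave -0.03 (-0.31 to 0.26), 0.03 (-0.08 to 0.14), -0.14 (-0.33 to 0.05) and -0.03 (-0.16 to 0.11) in the same order, and all 4 intervals included 0. By position, groups 1 to 3 had a ratio of 0.14, groups 4 to 8 one of -0.09 and groups 9 to 13 one of 0.06. Without the HOX genes that overlap another HOX gene the value of groups 1 to 3 was 0.23. Pooled fragments of all genes of each class, which weight long genes more, gave 0.05 (-0.07 to 0.16), -0.11 (-0.23 to 0.00) and 0.03 (-0.14 to 0.20), and left no class that stood clear of 0 by more than counting error in these libraries. The spans of 22 HOX genes overlapped another HOX gene and 25 overlapped a gene on the other strand. The way in which the fragments of such stretches were counted is not given in the sources used here, so that values of overlapping genes such as HOXB3, HOXB4, HOXC4 and HOXC6 may share fragments. HOXB2 and HOXD13 overlapped no other HOX gene. Of the 39 genes, 0 had an identical 100-bp stretch of transcript in common with a HOX gene that they do not overlap, and imperfect copies and copies outside the HOX genes were not searched.

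The HOX clusters also hold noncoding RNAs, several of which lie between or antisense to HOX genes and are known to be transcribed along with them. Of 24 on the list that the file gives as noncoding, 5 had at least 1 FPKM in each library, 19 lay below it in both and 12 had 0 fragments in both. HAGLR, in the HOXD cluster near HOXD1, had 2.87 FPKM (266 fragments) in shControl and 2.17 FPKM (190 fragments) in shFKBP9, a log2 ratio of -0.39 (-0.68 to -0.13). HOTAIRM1, in the HOXA cluster, had 3.36 and 2.65 FPKM (-0.33, -0.82 to 0.13), and HOXD-AS2 had 3.25 and 2.65 (-0.28, -0.78 to 0.19). HOXB-AS1 had 2.37 and 2.47 (0.05). The MIR10B gene had 3.51 and 2.12 FPKM from 7 and 4 fragments, and these libraries do not measure mature miRNAs. HOTAIR, in the HOXC cluster, and HOTTIP, at the HOXA13 end of HOXA, had 0 fragments in both libraries. Of the 5 expressed noncoding genes, 4 were lower in shFKBP9 and 1 was higher, and the interval of HAGLR was the only one below 0.

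Taken over all 62 genes that were not HOX genes within the spans of the clusters, of which 18 had a fragment, there were 734 fragments in shControl and 552 in shFKBP9, a pooled log2 ratio of -0.33 (-0.50 to -0.17). By cluster the pooled ratio was -0.41 (-0.64 to -0.18) in HOXD, -0.39 (-0.81 to 0.02) in HOXC, -0.28 (-0.66 to 0.10) in HOXA and -0.07 (-0.50 to 0.37) in HOXB. HOX genes of the same clusters had a pooled ratio of -0.02 (-0.09 to 0.05). Of 547 antisense and lincRNA genes in the whole file that reached 1 FPKM in a library and 50 fragments together, 8.96% had an interval below 0, and their median log2 ratio was -0.02. A log2 ratio below 0, whatever its interval, was found for 51.7% of these genes. HAGLR held 266 of the 734 fragments in shControl and 190 of the 552 in shFKBP9, and AC012531.1, a lincRNA at chromosome 12, 54019910 to 54022589, held 118 and 86 (-0.36, -0.80 to 0.03; named after its values were seen).

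HOX proteins bind DNA together with TALE homeodomain partners, and 6 of the 11 such genes had at least 1 FPKM in both libraries. PBX2 had 19.4 FPKM in shControl and 17.3 in shFKBP9, MEIS2 had 8.37 and 8.52, and MEIS3 had 8.25 and 9.53. PBX3, named after its values were seen, had 5.56 and 7.69 (0.46, 0.29 to 0.65), the highest ratio of the list. Among the 6, 4 were higher and 2 lower in shFKBP9, with a median of 0.06 and 0 past 2-fold. The interval lay above 0 for 2 and below 0 for 1. Polycomb proteins keep HOX genes silent, and 22 of 23 listed were expressed, including EZH2, the H3K27 methyltransferase, at 22.7 and 23.1 FPKM, RING1 at 53.2 and 49.9, and PHC2 at 31.3 and 34.2. Of these 22, 11 were higher and 11 lower, and the median was -0.04. The interval lay above 0 for 2 and below 0 for 5. Trithorax proteins keep HOX genes active. The list made for them also holds linked factors that are not Trithorax proteins, MLLT1 among them. Of its 17 genes 16 were expressed, with MLLT1 at 30.6 and 25.1, WDR5 at 22.0 and 21.9 and MEN1 at 15.2 and 13.2. Of these 16, 5 were higher and 11 lower, with a median of -0.06. The interval lay above 0 for 1 and below 0 for 7. Neither list held a gene past 2-fold. The lowest Polycomb ratio was that of PHC1, -0.71, and the lowest on the Trithorax list was -0.44. Of protein-coding genes read for ratios, 46.3% lay above 0 and 53.7% below. Intervals lay above 0 for 19.7% of them and below 0 for 24.0%. In each library 51.1% of all protein-coding genes had at least 1 FPKM.

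Other genes that mark position were read beside the HOX genes. Of 24 homeobox genes of the forebrain and midbrain, 5 had at least 1 FPKM and 12 had 0 fragments in both libraries, among them OTX2, EMX2, EN1 and EN2, which pattern the forebrain and the border between midbrain and hindbrain. DLX1, a regulator of forebrain interneurons, stood at 4.83 FPKM in shControl and 4.30 in shFKBP9, DLX2 at 1.62 and 1.47, and DLX5 at 1.55 and 2.23. Of the 5 expressed, 2 were higher and 3 lower in shFKBP9, with a median of -0.13. Forebrain genes were thus expressed in part, in the same libraries as HOX genes. Of 16 regulators of early HOX expression and of the hindbrain, 8 reached 1 FPKM in shControl and 7 in shFKBP9. EGR2, which acts on group 2 genes in hindbrain segments, had 2.56 FPKM in shControl and 2.40 in shFKBP9 (named after its values were seen). IRX3 had 38.1 and 47.0 (0.30), CTCF, which holds chromatin boundaries within the clusters, had 9.42 and 8.97, and CDX2 and CDX4, activators of central HOX genes, had 0 fragments. Of these 8, 3 were higher and 5 lower, with a median of -0.08. Of 25 genes of limb and trunk position, 11 were expressed, with TWIST1 at 53.6 and 41.9 FPKM, TBX15 at 25.4 and 22.2 and PRRX1 at 13.9 and 22.8, the highest ratio of the list at 0.71. The lowest was that of MSX1, at 2.89 and 1.57 FPKM (-0.84, -1.37 to -0.41). TBX4 and TBX5, which mark hindlimb and forelimb, had 0 fragments. Of these 11, 5 were higher and 6 lower, with a median of -0.04. Of 18 genes of the retinoic acid pathway, the signal that opens HOX clusters in the embryo, 11 were expressed. RARA had 24.5 and 24.8 FPKM, RXRB had 19.7 and 19.1 and RARG had 16.3 and 15.0. Here 2 were higher and 9 lower, with a median of -0.09, and the interval lay above 0 for 0 and below 0 for 4. STRA6, the retinol transporter, had the lowest ratio, at 4.96 and 2.45 FPKM (-0.99). In the forebrain, hindbrain and limb lists intervals lay above 0 for 1, 1 and 2 genes and below 0 for 0, 2 and 3. Of protein-coding genes read for ratios, 46.3% lay above 0 and 53.7% below. Intervals lay above 0 for 19.7% of them and below 0 for 24.0%. In none of these lists did a gene pass 2-fold with 0.1 added to FPKM. With nothing added STRA6 did, at -1.01 from 690 fragments in shControl against 324 in shFKBP9.

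**Figure D4:**
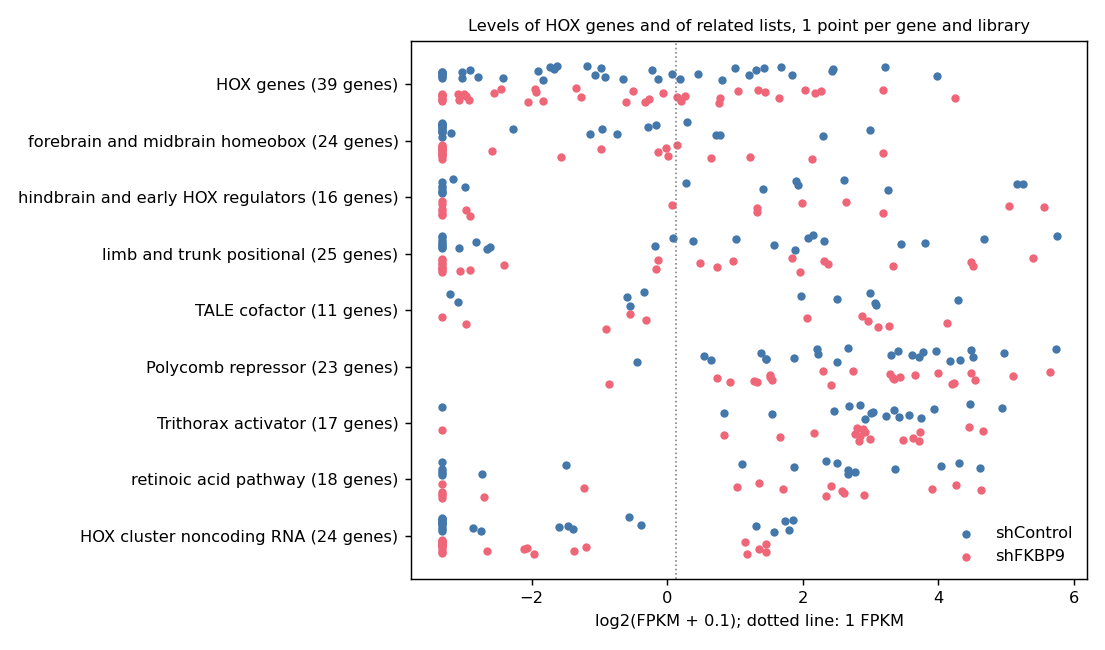
Levels as log2(FPKM + 0.1) (horizontal axis) of the 39 HOX genes and of the related lists (rows), 1 point per gene and library for shControl and shFKBP9, with a dotted line at 1 FPKM. Most HOX points lie left of the line, as do those of the forebrain and midbrain homeobox genes, of which 5 of 24 reach it. On the Polycomb list 22 of 23 genes lie right of it, and on the Trithorax list 16 of 17.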

How the data were processed

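RNA of SF-539 shControl and shFKBP9 cells was sequenced as 1 library each. The authors aligned reads to hg38 with HISAT2 2.0.5, counted them per gene with featureCounts 1.5.0-p3 and used edgeR, per the labels; the annotation release and strand setting are not given in the sources used here. The deposited values are FPKM with gene positions and lengths. Multiplied by gene length, 100% of the values were whole multiples of 1 fragment (tolerance 1e-06), so fragments were recovered. FPKM favors no library by depth, but low genes rest on few fragments.

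Ratios were computed with 0.1 added to FPKM. Genes at 1 FPKM or more in either library were read for ratios and called past 2-fold. Exact Clopper-Pearson intervals of fragments (95%, levels by exact Poisson intervals) cover counting error only; no test between conditions was possible. The members and lists were chosen with earlier results of these data known. Named are the HOX genes, the 3 highest genes of each list, genes past 2-fold, the markers needed to judge cell type, and those said to be named after their values were seen, as were HAGLR, HOXB-AS1, DLX2, STRA6, MSX1 and PHC1; values of a few such genes are not reported here. Groups came from the treatment labels. Alternatives were other additions, minima and scalings, and leaving out overlapping genes; ratios with nothing added were computed after seeing the data. Recovery and calls were tested on simulated data of 58735 genes. Spans and positions were compared with GENCODE release 44; upstream sequences are from RefSeq. Calculations used scipy 1.17.1, pandas 2.3.3 and numpy 2.4.6 in Python 3.11.15, and plots used matplotlib 3.10.9.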

Additional observations from a re-analysis of the deposited data

How the results depend on the processing

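How many HOX genes counted as expressed depended on the minimum and on overlapping genes. The 13 genes in shControl and 14 in shFKBP9 became 21 in each with values rescaled to TPM at a minimum of 1, 9 and 8 at a minimum of 2 FPKM, and 5 in each when HOX genes whose span overlaps another HOX gene were left out. Without any minimum 1 gene passed 2-fold, HOXC10, with 7 fragments in shControl and 1 in shFKBP9. With nothing added and no minimum, chosen after seeing the data, 4 genes with more than 3 fragments in a library passed it, HOXC10 at -2.73, HOXD3 at -1.30, HOXD4 at -1.09 and HOXA6 at 1.08, and with nothing added at the usual minimum 0 did. Without overlapping genes the log2 ratio of the HOXB sum moved from 0.11 to 0.26 and that of the HOXC sum from -0.11 to -2.14, where only HOXC10 to HOXC13 with few fragments remained. The HOXA sum, at 0.07, was -0.02 by fragments scaled by library size alone, and the HOXD sum, at -0.01, was 0.01 after centring on the median ratio and 0.03 without overlapping genes, all within the counting intervals. Of the alternatives for counts, medians and sums, 46 stayed within the limits set and 8 did not. The limits were 1.5 times a count and the counting interval placed about a sum. For the median the limit was an interval from the ordered ratios of the 14 genes, which describes no spread between libraries. The ratio of groups 1 to 3 stayed within its limit. It moved from 0.14 to 0.23 without overlapping genes and to 0.05 by fragments scaled by library size alone. None of 56 alternatives for the 14 expressed genes changed a sign. Other additions cannot change a sign, and centring and TPM moved these ratios too little to do so. That count is therefore no measure of stability. No paired analysis was possible because each condition had 1 library, and for the same reason no library could be left out.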

Other observations

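Genes that flank the HOX clusters were read as a comparison for position on the chromosome. Of 19 found in the file, 14 had at least 1 FPKM in both libraries, with HNRNPA1, a splicing factor gene on the HOXC4 side of HOXC, at 196 FPKM in shControl and 202 in shFKBP9, NFE2L1, a transcription factor gene, at 81.0 and 78.6, and CBX1, a heterochromatin protein gene, at 36.3 and 44.4, both on the HOXB1 side of HOXB. Among these 14, 11 were higher and 3 lower in shFKBP9, with a median log2 ratio of 0.07 and 0 past 2-fold, while 46.3% and 53.7% of all protein-coding genes tested lay above and below 0 and 0.406% passed 2-fold. The interval lay above 0 for 7 of the 14, against 19.7% of protein-coding genes. The homeobox genes EVX1 and EVX2, which adjoin HOXA13 and HOXD13, were near 0. EVX1 had 0 fragments in both libraries, and EVX2 had 2 in each although HOXD13 next to it had 5.33 and 4.73 FPKM.

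Of 153 other protein-coding genes that the deposited annotation places in the homeobox family, 39 reached 1 FPKM in either library. Their log2 ratios ran from -0.84 to 0.71 with a median of -0.12 and 0 past 2-fold. Among other marker lists, endothelial and immune markers were below 1 FPKM in both libraries (0 of 3 each, PTPRC at 0), SNAP25 was the neuronal marker above it at 4.98 and 5.76 FPKM, and of 6 oligodendrocyte lineage markers PDGFRA reached it in shControl alone, at 1.46 and 0.976.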
